A study of Mus musculus with 10 samples.

Results

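TNF-superfamily costimulation genes were followed in mouse acute lymphoblastic leukaemia cells that had grown in transplanted animals. The 7 genes were Cd40, Cd70, Tnfsf4, Tnfsf9, Tnfrsf14, Tnfsf13b and Tnfrsf13c. They were chosen by symbol, and every probe set (a group of oligonucleotide probes summarised as 1 value) that carried 1 of these symbols was taken, which gave 11 of the 45101 probe sets in the table. The table covers 18193 named genes in all. The leukaemia, called NSTY ALL in the labels, was of C57BL/6 background, carried the human p210 bcr/abl fusion and had a deletion in the Ink4a/Arf locus in both groups. All recipients were C57BL/6 mice prepared with total body irradiation and 5-fluoruracil. In the allogeneic group (5 animals) the leukaemia was given with C3.SW marrow and spleen cells, and in the syngeneic group (5 animals) with C57BL/6 marrow and spleen cells. The cells were recovered every 2 to 3 weeks and moved on, and after 3 serial transplants they were sorted from marrow on GFP for RNA, 1 array per animal. It is 1 leukaemia, and the sources used here say neither the age of the mice nor whether animals of a group shared an earlier recipient. The p-values thus weigh group differences against the variation among these 10 animals, which may not be independent, and reach no further than this leukaemia.

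Members of this family are paired ligands and receptors that pass signals between antigen-presenting cells, B cells and T cells. CD40 on B cells and antigen-presenting cells is engaged by CD40 ligand on T cells, and it signals through TRAF adaptors to NF-kB. CD70, OX40 ligand (Tnfsf4) and 4-1BB ligand (Tnfsf9) are carried by the presenting cell and act on CD27, OX40 (Tnfrsf4) and 4-1BB (Tnfrsf9) of T cells. HVEM (Tnfrsf14) binds the activating ligand LIGHT as well as BTLA and CD160, through which lymphocytes can be restrained. BAFF (Tnfsf13b) and its receptor (Tnfrsf13c) keep B cells alive.

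Values are log2 intensities after quantile normalization, and each array had its own background limit, set at the 95th percentile of its 27 bacterial control probe sets. This limit ran from 4.50 to 5.32, and 25611 to 30376 probe sets per array exceeded it. Of 11 B-lymphoid progenitor markers, 10 were above the limit on all 10 arrays, with Cd24a, a surface glycoprotein of immature B cells, as the marker of highest mean signal. The arrays of allogeneic animals 1, 3 and 4 had deposited lower quartiles of 18.7 to 19.5, against 13.8 to 14.4 on the other 7. Without allogeneic animal 1 the number of probe sets passing limma's test became 2035, against 185 with all animals.

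None of the 11 probe sets passed limma's test between allogeneic and syngeneic animals (Benjamini-Hochberg adjusted p under 0.05 over 45037 probe sets), where 0.411% of all probe sets passed. An unadjusted p under 0.05 was reached by 3 of the 11, all of Cd40, against 16.9% of all probe sets, or 7.9% counting those higher in allogeneic animals, as Cd40 was. The groups overlapped for all 11, while 4.74% of all probe sets had groups without overlap. Differences were positive for 6 probe sets and negative for 5. A probe set above the limit on every array was found for 5 genes, Cd40, Tnfsf9, Tnfrsf14, Tnfsf13b and Tnfrsf13c (7 probe sets), whereas Cd70 and Tnfsf4 were at background on nearly all of them. In whole samples of sorted cells, fewer cells of a kind and less RNA per cell cannot be told apart.

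**Figure D1:**
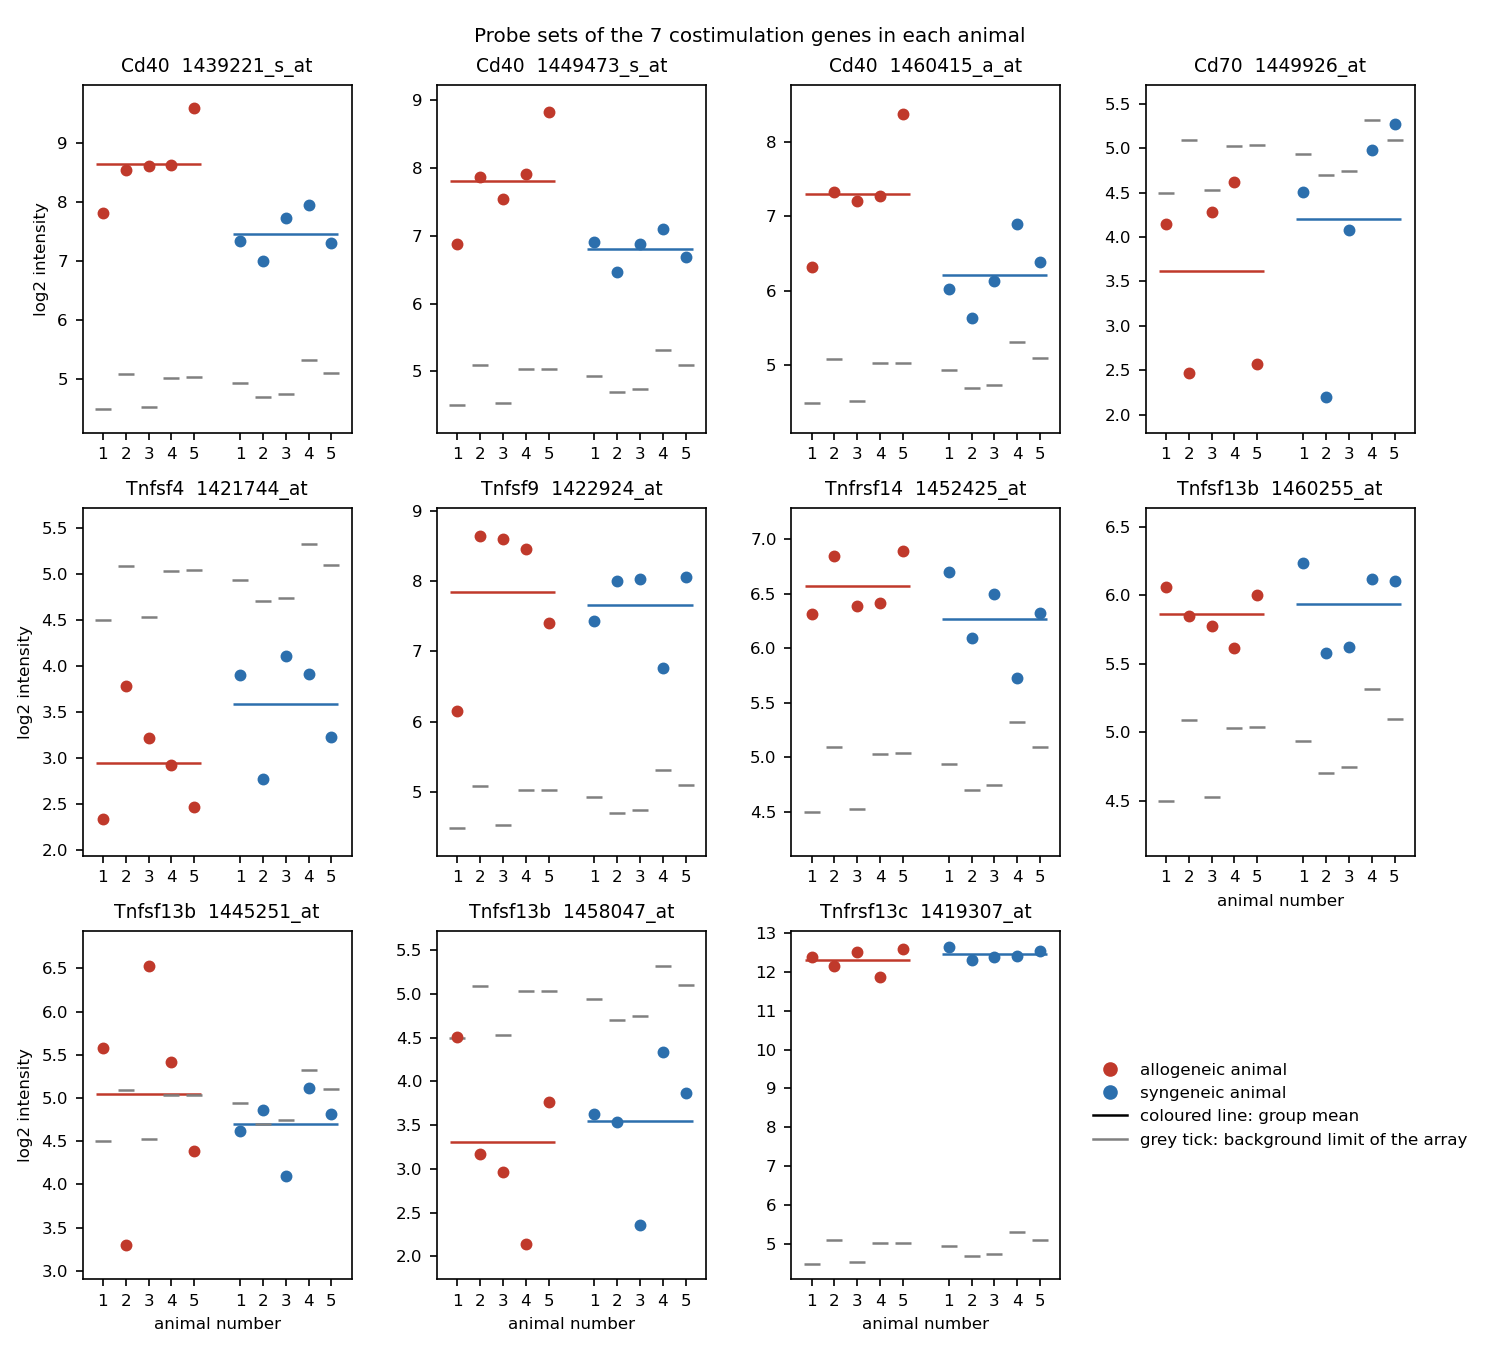
Log2 intensity (vertical axis) of each of the 11 probe sets in each of the 5 allogeneic (red, left) and 5 syngeneic (blue, right) animals; coloured lines are group means and grey ticks the background limit of each array. Cd40 stood higher in allogeneic animals 2 to 5 than in any syngeneic animal on its 3 probe sets, and Cd70 and Tnfsf4 lay under the limits on all arrays but that of syngeneic animal 5 for Cd70.

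Cd40 encodes the receptor for T cell help. Its leading probe set (the one of highest mean), 1439221_s_at, read 7.81, 8.55, 8.60, 8.62 and 9.59 in allogeneic animals 1 to 5, against 7.34, 7.00, 7.73, 7.95 and 7.31 in syngeneic animals 1 to 5. Allogeneic animals 2 to 5 lay above every syngeneic animal, and allogeneic animal 1 fell among the syngeneic values. The means were 8.63 ± 0.63 and 7.46 ± 0.37 (SD, n = 5 each), a difference of 1.17 on the log2 scale (SE 0.31) or 2.25-fold, with a 95% interval of 1.40 to 3.63 and an adjusted p of 0.126 by limma. The SD within groups, pooled, was larger than that of 86.7% of the probe sets above the limit on every array.

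The other probe sets of Cd40 gave the same order of animals at both ends. Probe set 1449473_s_at read 6.88, 7.87, 7.54, 7.91 and 8.83 in allogeneic animals 1 to 5, against 6.90, 6.47, 6.87, 7.09 and 6.68 in syngeneic animals. Probe set 1460415_a_at read 6.33, 7.33, 7.21, 7.28 and 8.37 in allogeneic animals, against 6.02, 5.64, 6.13, 6.89 and 6.39 in syngeneic animals. On all 3 probe sets allogeneic animal 5 was the highest of the 10 animals, syngeneic animal 2 the lowest, and allogeneic animal 1 the lowest of its group. The difference was 1.00 (SE 0.31, adjusted p = 0.167) for 1449473_s_at and 1.09 for 1460415_a_at (SE 0.36, adjusted p = 0.181) by limma. The 3 probe sets read the same RNA and may share target sequence, so they are not independent measurements. Sets of these suffixes can match more than 1 transcript, and whether other transcripts add to the readings was not tested. The mean of the 3 probe sets differed by 1.09 (SE 0.32, adjusted p = 0.167 over genes).

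Whether Cd40 passed depended on allogeneic animal 1. Without that animal the limma difference was 1.39 (adjusted p = 0.0300) for 1439221_s_at, 1.24 (adjusted p = 0.0353) for 1449473_s_at and 1.34 (adjusted p = 0.0509) for 1460415_a_at. In that fit 2035 of all 45037 probe sets passed, against 185 with all 10 animals. No other single animal gave a Cd40 call when left out. Leaving out allogeneic animals 1, 3 and 4 together gave 1, for 1449473_s_at (1.56, adjusted p = 0.0406), and 2035 probe sets passed in that fit too. Without allogeneic animal 5, the highest, the differences were 0.93, 0.74 and 0.82. The difference was positive under each of the settings in which it had a value.

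**Figure D2:**
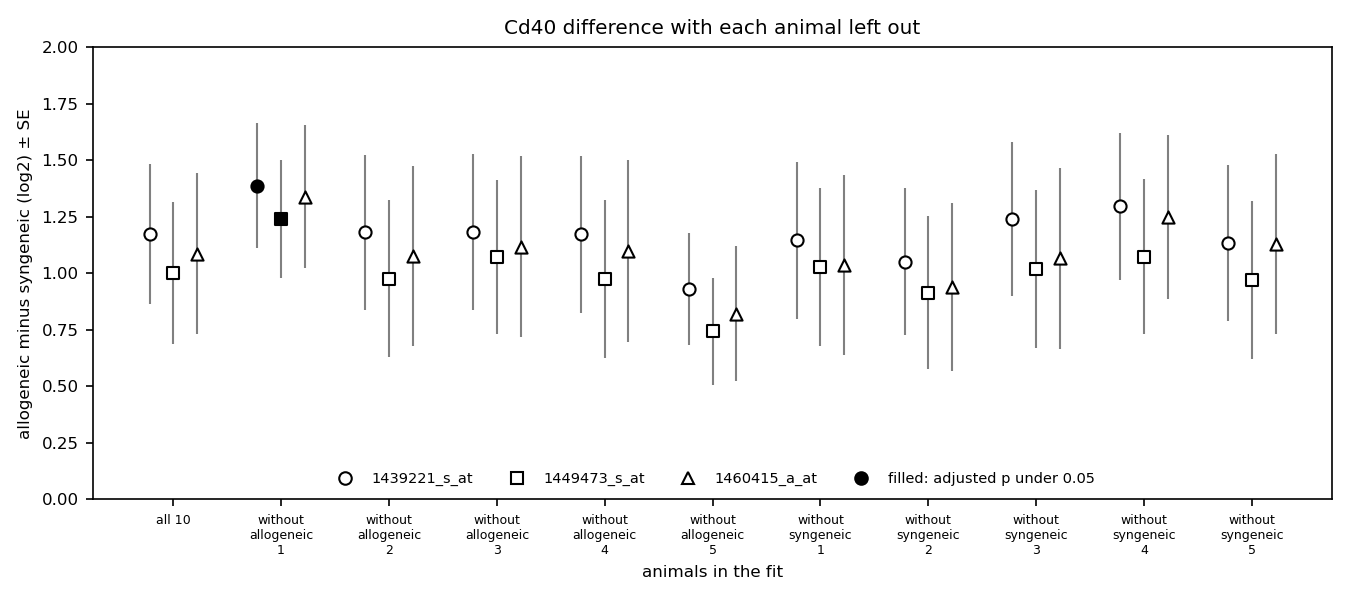
Cd40 difference, allogeneic minus syngeneic on the log2 scale with its SE (vertical axis), for 3 probe sets with all 10 animals and with each animal left out in turn; filled symbols passed limma's test. Filled symbols appear only where allogeneic animal 1 was left out, for 2 of 3 probe sets, and the differences are smallest without allogeneic animal 5.

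Macrophages and dendritic cells also carry CD40, so their markers were read on the same arrays. The summed linear signal of 15 macrophage and monocyte markers ran from 13287 to 14974 in allogeneic animals, against 9863 to 12104 in syngeneic animals. Most of each sum came from Mpeg1 and Fcgr3, with allogeneic means of 12.63 and 12.46, against 9.41 for Mrc1, the next highest. Mpeg1, a pore-forming protein of phagocytes, differed by 0.68 (SE 0.23, adjusted p = 0.186 by limma). Fcgr3, an Fc receptor with the highest mean signal, differed by 0.21 (SE 0.15, adjusted p = 0.504). None of the 15 passed, 7 differences were positive and 8 negative, their median was -0.062, and Cd14 was above the limit on no array. Allogeneic animal 1, the lowest of its group for Cd40, had a marker sum of 14775, above every syngeneic animal. This sum came mostly from Mpeg1, at 13.14 the highest of the 10 animals, while Lyz2 (5.23) and C1qb (2.73) were at their lowest in allogeneic animal 1. Its median marker level was 4.98, against 6.30 to 7.03 in the other allogeneic animals and 5.99 to 6.43 in syngeneic animals, so this animal was among the highest by its sum and the lowest by its median. For 9 dendritic cell markers the sums ran from 798 to 1434 in allogeneic and 660 to 1140 in syngeneic animals. Their median difference was 0.47, with 6 of 9 positive. None passed, and Itgax, Cd209a and Batf3 were above the limit on no array. For 7 mature B cell markers the sums ran from 3924 to 7037 in allogeneic and 5146 to 8055 in syngeneic animals, and all 7 differences were negative. The sums of 10 stroma and endothelium markers did not overlap, with 797 to 1045 in allogeneic and 595 to 777 in syngeneic animals. All 10 differences were positive, but only 2 of the 10, Pecam1 and Mgp, were above the limit on every array. Cdh5 and Kdr exceeded it on 1 allogeneic array each, and Cxcl12 and Emcn on no array. The differences of these dim markers are between values not well above background. Pecam1, with means of 9.16 and 8.75, was the largest part of these sums. Its own groups overlapped, and it differed by 0.41 (SE 0.17, adjusted p = 0.256 by limma). Of the 10 markers only Mgp had groups without overlap, as was so for 4.83% of all genes. None of the mature B cell or stroma and endothelium markers passed, nor did any of the 10 T cell, 7 NK cell, 7 granulocyte and 6 erythroid markers. Among the markers of highest mean signal, Gzma (NK cells) differed by 1.06 (SE 0.26, adjusted p = 0.110 by limma) and Lat (T cells) by -0.78 (adjusted p = 0.192). Neither stands for its list. The 7 NK cell markers had 3 positive and 4 negative differences, with a median of -0.092. The 10 T cell markers had 6 positive and 4 negative, with a median of 0.12. S100a8, Klf1, Ccr7 and Cd22, of the granulocyte, erythroid, dendritic and mature B cell lists, differed by 0.32, 0.28, 0.48 and -0.050. The part of any such cells in the Cd40 values was not tested.

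Among ligands for T cell receptors, Tnfsf9, which encodes 4-1BB ligand, was above the limit in every animal and was the most variable of the readable members. It read 6.15, 8.64, 8.59, 8.46 and 7.40 in allogeneic animals 1 to 5, against 7.43, 8.01, 8.03, 6.76 and 8.06 in syngeneic animals. Allogeneic animal 1 was the lowest of all, and allogeneic animals 2 to 4 the highest of all. The means were 7.85 ± 1.08 and 7.66 ± 0.57 (SD, n = 5 each), and the difference of 0.19 (SE 0.49) had an adjusted p of 0.882 by limma. Its 95% interval, 0.532-fold to 2.45-fold, holds changes in either direction. The pooled SD within groups was 0.86, larger than that of 98.8% of the 22847 probe sets above the limit on every array, whose median was 0.30.

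Cd70, the ligand of CD27, had readings under the limit on 9 of 10 arrays. It read 4.14, 2.47, 4.29, 4.62 and 2.57 in allogeneic animals, against 4.51, 2.20, 4.07, 4.98 and 5.28 in syngeneic animals. Only syngeneic animal 5 exceeded its limit, of 5.10. Tnfsf4, which encodes OX40 ligand, exceeded the limit on no array, with readings of 2.33 to 3.78 in allogeneic and 2.77 to 4.11 in syngeneic animals. No fold is given for either gene. Their differences of -0.59 (adjusted p = 0.679) and -0.64 (adjusted p = 0.371) by limma are between values not well above background.

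Tnfrsf14 encodes HVEM, a receptor that lymphocytes read both ways. It read 6.31, 6.85, 6.39, 6.41 and 6.89 in allogeneic animals 1 to 5, against 6.70, 6.09, 6.50, 5.73 and 6.32 in syngeneic animals. Allogeneic animals 2 and 5 lay above all syngeneic animals, and the other 3 lay among them. The means were 6.57 ± 0.27 and 6.27 ± 0.37 (SD, n = 5 each), with a difference of 0.30 (SE 0.21, adjusted p = 0.499 by limma) and a 95% interval of 0.890-fold to 1.70-fold. The window around its start is shown because it holds the core letters of an interferon-stimulated response element, through which interferon-inducible genes are read out. It covers chr4:154928028-154928327 of GRCm38.p6 on the minus strand, from 250 bases before to 50 bases after the RefSeq start, 5′ to 3′, with the match in capitals.
Tnfrsf14: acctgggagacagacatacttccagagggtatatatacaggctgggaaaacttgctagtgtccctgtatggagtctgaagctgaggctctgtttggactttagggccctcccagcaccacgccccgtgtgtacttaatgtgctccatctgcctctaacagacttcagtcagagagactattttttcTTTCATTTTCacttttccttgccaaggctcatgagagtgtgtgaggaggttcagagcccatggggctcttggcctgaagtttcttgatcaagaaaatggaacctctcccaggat

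The motif searched was GAAANNGAAA on both strands, and the capitals are its reverse complement, which begins 64 bases before the start. Of 32851 such windows in RefSeq's GRCm38.p6, 3.44% held it. RefSeq windows were at hand for 3 of the 7 members, Tnfrsf14, Tnfsf13b (2 starts) and Tnfrsf13c. The interferon-gamma activated site TTCNNNGAA, held by 8.3% of all windows, was in none of these 4 windows. The NF-kB pattern GGGNNNNNCC, held by 50.8%, was in those of Tnfrsf14 and Tnfrsf13c. A match is a description of letters and not a shown binding site.

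Tnfsf13b, which encodes the survival factor BAFF, was read by 3 probe sets of unequal use. Only 1460255_at was above the limit on every array. It read 6.06, 5.85, 5.78, 5.62 and 6.00 in allogeneic animals 1 to 5, against 6.24, 5.58, 5.62, 6.12 and 6.11 in syngeneic animals. The allogeneic values all lay within the syngeneic range. The means were 5.86 ± 0.18 and 5.93 ± 0.31 (SD, n = 5 each), and the difference of -0.072 (SE 0.17, adjusted p = 0.871 by limma) had a 95% interval of 0.728-fold to 1.24-fold.

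The other 2 probe sets of Tnfsf13b were near background. Probe set 1445251_at read 5.58, 3.30, 6.53, 5.42 and 4.39 in allogeneic animals, against 4.62, 4.86, 4.10, 5.12 and 4.81 in syngeneic animals. It exceeded the limit on 3 allogeneic arrays, those of animals 1, 3 and 4, and on 1 syngeneic array. These 3 are the arrays of raised lower quartile, and without them the difference was -0.86 (adjusted p = 0.202 by limma), against 0.34 (adjusted p = 0.781) with all 10. Probe set 1458047_at exceeded the limit on 1 allogeneic array and no syngeneic array, with readings of 2.14 to 4.50 in allogeneic and 2.36 to 4.34 in syngeneic animals.

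The second of the RefSeq starts of Tnfsf13b also holds the response element core. Its window is shown for comparison with that of Tnfrsf14. Tnfsf13b differed by -0.072 and Tnfrsf14 by 0.30, and neither passed the test. It covers chr8:10006383-10006682 of GRCm38.p6 on the plus strand, 5′ to 3′, with the match, which begins 16 bases before the start, in capitals.
Tnfsf13b: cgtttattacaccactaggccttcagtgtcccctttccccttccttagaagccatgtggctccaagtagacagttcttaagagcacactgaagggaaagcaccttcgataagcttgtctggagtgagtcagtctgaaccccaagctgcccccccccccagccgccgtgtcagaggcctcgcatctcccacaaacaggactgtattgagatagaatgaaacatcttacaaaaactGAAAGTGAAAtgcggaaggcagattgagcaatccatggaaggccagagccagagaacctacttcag

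Tnfrsf13c encodes the BAFF receptor, a B-lineage gene, and was read far above the limit in every animal. It read 12.39, 12.15, 12.52, 11.86 and 12.58 in allogeneic animals 1 to 5, against 12.65, 12.32, 12.39, 12.41 and 12.52 in syngeneic animals. Allogeneic animals 2 and 4 lay below all syngeneic animals, and the groups overlapped otherwise. The means were 12.30 ± 0.30 and 12.46 ± 0.13 (SD, n = 5 each), with a difference of -0.16 (SE 0.16, adjusted p = 0.661 by limma) and a 95% interval of 0.697-fold to 1.15-fold. Tnfrsf13c had the narrowest pooled SD of the readable members, at 0.23, larger than that of 31.8% of probe sets above the limit on every array.

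**Figure D3:**
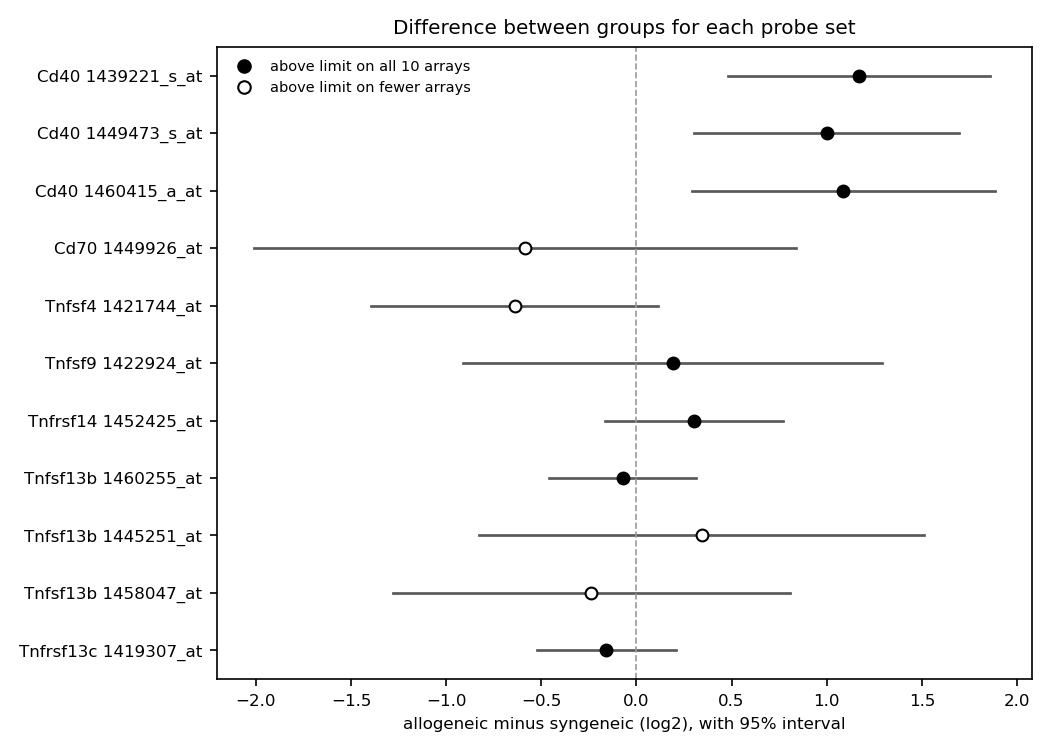
Difference between groups, allogeneic minus syngeneic on the log2 scale, with its 95% interval from limma (horizontal axis), for each of the 11 probe sets; filled points were above the limit on all 10 arrays. The intervals of the 3 Cd40 probe sets lie above 0 before adjustment over all probe sets, and the other 8 span 0.

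**Figure D4:**
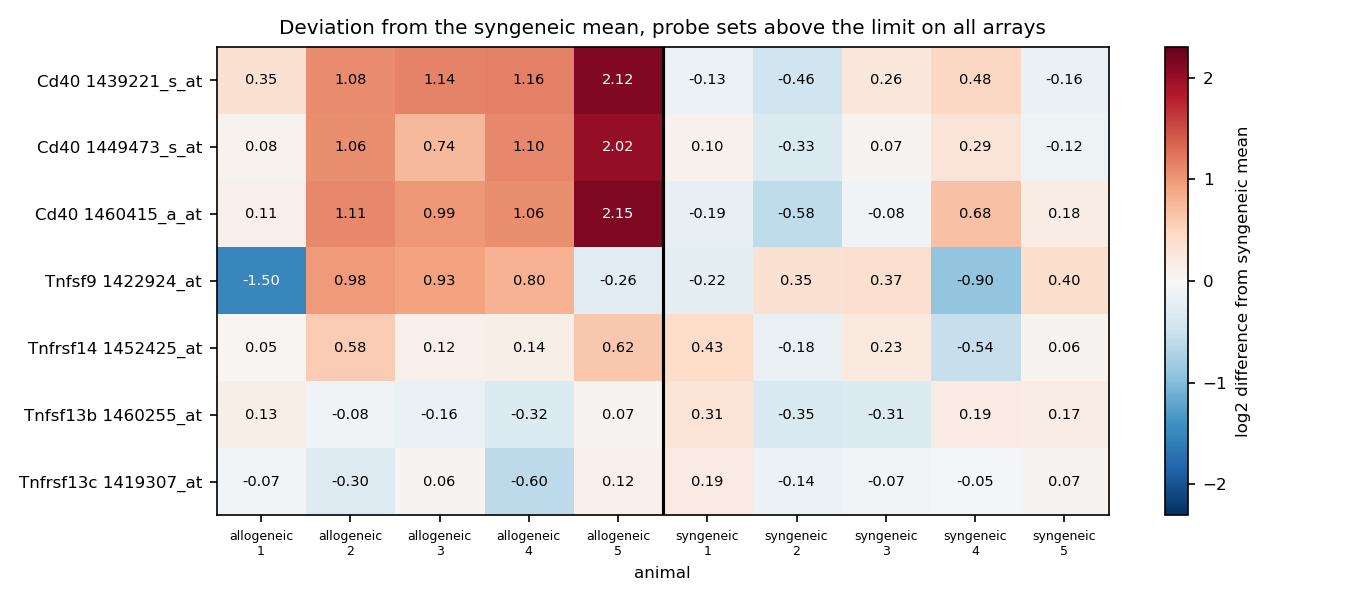
Deviation of each animal from the syngeneic mean in log2 units (colour and printed value) for the 7 probe sets above the limit on all arrays, with allogeneic animals on the left and syngeneic animals on the right. Cd40 is high in allogeneic animals 2 to 5, Tnfsf9 is low in allogeneic animal 1 and syngeneic animal 4, and Tnfrsf13c and Tnfsf13b vary little.

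The partners of these molecules were read in the same leukaemia cells. Of 11 measured partner receptors and ligands none passed, against 0.423% of 18193 genes (0.368% higher, 0.055% lower), and their median difference was -0.13 against 0.011 over all genes. The T cell partners Cd40lg, Cd27 and Tnfrsf9, and Tnfsf14, which encodes LIGHT, were above the limit on no array. Tnfrsf4, the OX40 gene, was above it on 9 of 10 arrays, and allogeneic animal 3 was the exception.

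Of the genes around HVEM, Btla, Lta and Cd160 had negative differences, none of which passed. Btla, an inhibitory receptor of lymphocytes, read 6.96, 7.65, 8.04, 7.27 and 7.34 in allogeneic animals, against 9.14, 8.06, 8.96, 7.54 and 8.10 in syngeneic animals. Its difference was -0.91 (SE 0.33, adjusted p = 0.209 by limma), and the groups overlapped through syngeneic animal 4. Lta, which encodes lymphotoxin alpha, differed by -0.50 (SE 0.21, adjusted p = 0.264) and Cd160 by -0.47 (SE 0.26, adjusted p = 0.377). Ltb, the lymphotoxin beta gene, differed by 0.034 (SE 0.23). The other BAFF receptors, Tnfrsf13b (TACI) and Tnfrsf17 (BCMA), differed by -0.13 (SE 0.14) and -0.024 (SE 0.18), with Tnfrsf17 above the limit on 6 of 10 arrays.

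Of 5 further measured genes of costimulatory pairs, Tnfsf8, Tnfrsf8, Tnfrsf25 and Ltbr were above the limit on no array. Tnfrsf18, which encodes GITR, was above it on all. It read 9.08, 9.78, 8.97, 9.83 and 9.54 in allogeneic animals, against 8.83, 9.09, 8.83, 8.80 and 9.21 in syngeneic animals. Its difference was 0.49 (SE 0.20, adjusted p = 0.254 by limma), with 3 of the 5 allogeneic animals above all syngeneic ones.

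Downstream of CD40 and the BAFF receptor, 0 of 10 measured TRAF adaptors and alternative NF-kB genes passed, and their median difference was 0.11. Map3k14, which encodes the NF-kB-inducing kinase NIK, read 6.90, 6.67, 6.96, 7.17 and 7.02 in allogeneic animals, against 6.47, 6.34, 6.54, 6.46 and 6.48 in syngeneic animals. These groups did not overlap, as was so for 4.83% of all genes, 2.94% with higher allogeneic values. The difference was 0.48 (SE 0.13, adjusted p = 0.123 by limma), it passed when the lower 50% of probe sets were left out (adjusted p = 0.0442), and over the mean of the gene's probe sets it was 0.25 (adjusted p = 0.419). Nfkb2 and Relb, the subunits of the alternative NF-kB dimer, differed by 0.31 (SE 0.14, adjusted p = 0.303 by limma) and, for Relb, by 0.42 (SE 0.21, adjusted p = 0.333). Traf5 differed by 0.22 (SE 0.16, adjusted p = 0.504).

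Of 13 measured CD40 and NF-kB response genes 2 rose and 11 did not pass, where 0.368% of all genes rose, and the list's median difference was 0.34. Fas, a death receptor, read 7.76, 7.89, 7.80, 8.07 and 7.69 in allogeneic animals, against 6.49, 6.42, 6.63, 6.38 and 6.46 in syngeneic animals. It rose by 1.36 (SE 0.12, adjusted p = 0.00141 by limma), 2.57-fold. Cd86, the B7 ligand of CD28, read 7.54 at the lowest, 7.61 at the median and 8.12 at the highest in allogeneic animals, against 6.36, 6.62 and 6.92 in syngeneic animals. It rose by 1.17 (SE 0.17, adjusted p = 0.0206), 2.26-fold, and in both genes every allogeneic animal, animal 1 included, lay above every syngeneic one.

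The call on Cd86 was lost without allogeneic animal 4 (adjusted p = 0.0507) or without syngeneic animal 1, 2, 3 or 5 (adjusted p of 0.0711, 0.0730, 0.0688 and 0.0703 by limma), with differences of 1.11 to 1.22 in those fits. The feedback inhibitors Tnfaip3 (A20) and Nfkbie differed by 0.44 (SE 0.16, adjusted p = 0.210 by limma) and, for Nfkbie, by 0.41 (SE 0.17, adjusted p = 0.258). Cd86 and Fas had been reported from these arrays when the list was drawn up, so their place in it is not independent evidence.

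**Figure D5:**
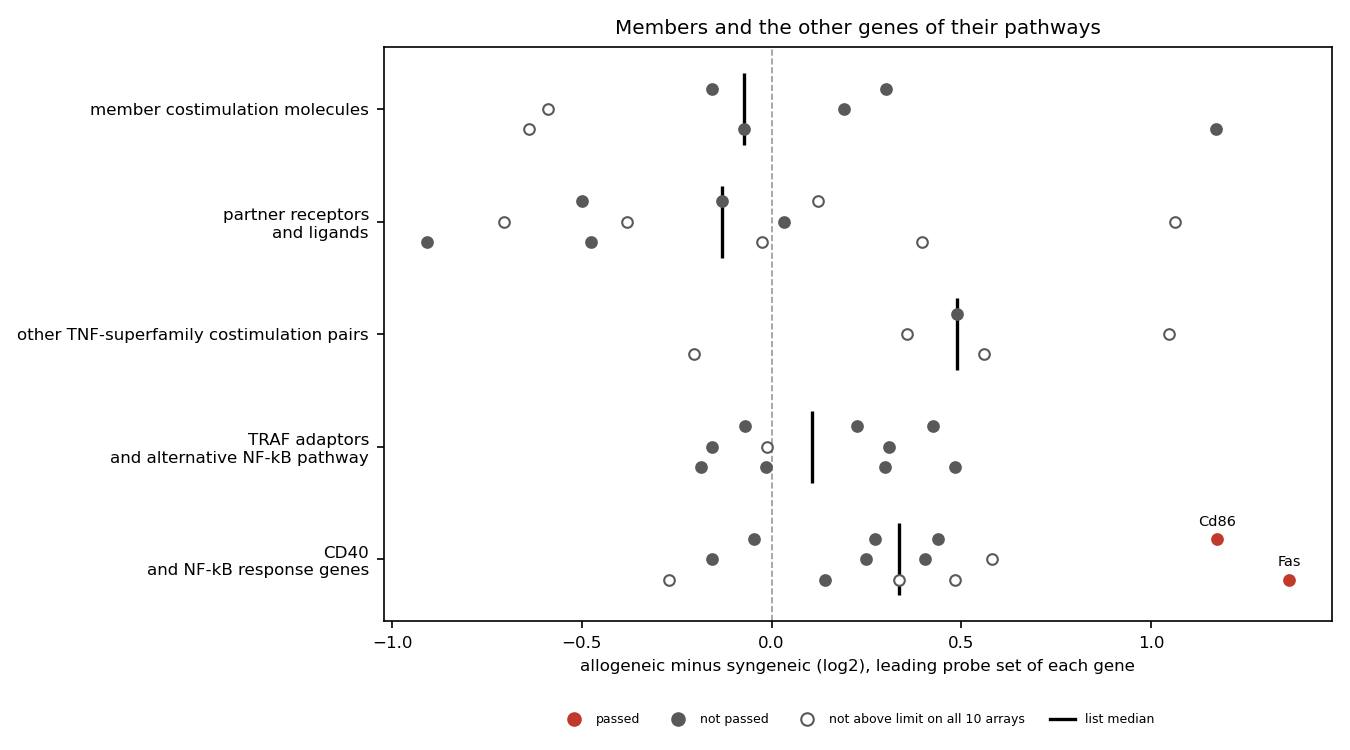
Difference between groups, allogeneic minus syngeneic on the log2 scale (horizontal axis), for the leading probe set of each member and of each gene in 4 pathway lists (rows); black bars are list medians and open points were not above the limit on all arrays. Fas and Cd86 (red) passed limma's test, and no member did.

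The genes whose values over the 10 arrays were most like a member's were looked up among 19350 to 19352 probe sets of other genes, those above the limit on every array that carry 1 symbol. These correlations are descriptions over 10 arrays that share 1 RNA preparation per animal. As the 3 highest of that many for each member, they are high by selection, and joint regulation was not tested. For Cd40 they were Ffar2 (Pearson r = 0.98), a receptor for short-chain fatty acids, Prdx2 (0.98), a peroxiredoxin, and Poldip2 (0.98). With group means removed the values were 0.95, 0.95 and 0.95. For Tnfsf9 they were AI467606 (0.996), Zscan22 (0.98) and Saysd1 (0.98), and for Tnfrsf13c they were Zfp592 (0.99), Dis3 (0.98) and Hip1r (0.97). Tnfrsf14 was most like Rps10 (0.95), Gatc (0.93) and Gosr2 (0.93), and Tnfsf13b like Psmd3 (0.89), Lgals4 (0.88) and Mycbp2 (0.87). None of these 15 probe sets passed limma's test between the groups.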

How the data were processed

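Expression was measured with 1 Affymetrix array for each of 10 animals. In the deposited table every probe set has 1 intensity value per array, on a linear scale. The sources used here do not give how the authors summarised and scaled the intensity values. Per the labels' protocols, total RNA was extracted with Trizol and biotinylated cDNA was made with NuGEN kits.

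After log2 transformation and quantile normalization, 45037 probe sets (45101 less 64 controls) were fitted with limma 3.58.1 in R 4.3.3 (lmFit and eBayes, 2-sided, Benjamini-Hochberg). Platform symbols were updated by gene identifier to GRCm38.p6, which left 34945 probe sets with 1 symbol, 932 with several and 9160 with none. A gene in a list stands for its probe set of highest mean. No low-value filter was applied. The fit was also run on simulated data with independent noise for each probe set, which lack array effects shared between probe sets. The number of arrays limits the precision.

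Members and lists were chosen with earlier results of these data known. Named were all member probe sets, list genes that passed or had 1 of the 4 smallest p-values of their list, the highest-signal markers, some background-level markers and the 3 most alike genes. Named beyond it, with their values already seen, were the partner genes Tnfrsf4, Cd27, Tnfrsf9, Tnfsf14, Ltb, Tnfrsf13b, Tnfrsf17 and Tnfrsf25, and the markers Mpeg1, Mrc1, Lyz2, C1qb and Mgp. Tnfsf13, Tnfsf18, Tnfsf15, Traf3, Chuk and Bcl2a1b were not analysed here. Alternatives changed normalization, probe sets per gene, filters, offset, eBayes settings, block and animals.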

Additional observations from a re-analysis of the deposited data

Results flagged for a closer look

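Among 54 groups of 5 animals tested for 1 animal far from the rest, where chance gives about 1 in 20, 1 stood out. Syngeneic animal 1 read 1.74 for Cd40lg on the log2 scale, against 0.085 to 0.52 in the other syngeneic animals. All of these readings lay below the background limit, as did the allogeneic ones.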

How the results depend on the processing

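Over 19 other settings the 11 member probe sets gave 192 comparisons, of which 181 kept their direction and their side of the threshold, 3 passed (all Cd40) and 8 changed sign, all of Tnfsf9 or Tnfsf13b and none passing. The number of member probe sets passing limma's test was 0 to 2 with 1 animal left out and 1 without allogeneic animals 1, 3 and 4. The changes of sign were of 1458047_at to 0.012 without quantile normalization, of 1460255_at to 0.012 over the mean of the probe sets of Tnfsf13b, and of 1445251_at to -0.86 without allogeneic animals 1, 3 and 4. With 1 animal left out the ranges were -0.031 to 0.62 for Tnfsf9, and -0.16 to 0.0041 (1460255_at), -0.027 to 0.78 (1445251_at) and -0.53 to 0.056 (1458047_at) for Tnfsf13b. Tnfsf9 turned without allogeneic animal 2 or syngeneic animal 4. Of all probe sets, 185 passed in the reported fit. The number was 106 with 1 probe set per gene, 71 with the mean per gene (fewer features tested in both), 631 without the lower 50%, 616 with probe sets above the limit on at least 5 arrays, 510 with an offset of 16, 482 with trend and robust eBayes, 70 to 2035 with 1 animal left out and 2035 without allogeneic animals 1, 3 and 4. The cause was not tested. Pathway genes passing were 2, or 3 without the lower 50% of probe sets (Map3k14 added), and 1 to 2 with 1 animal left out. With the animal number as a replicate block 7 probe sets and 0 pathway genes passed, and no member did. Same-numbered animals had correlated deviations of -0.24 to 0.37 and 2 of 5 correlated best with their own number, so the numbers are not taken to pair animals. Filters on dim probe sets removed some of Cd70, Tnfsf4 and Tnfsf13b, which then have no value. Signal near background limits what can be said of Cd70 and Tnfsf4.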
